A study of Caenorhabditis elegans with 6 samples.

Results

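Sperm genes of *Caenorhabditis elegans* were examined in first-stage (L1) larvae, a stage that makes no sperm. The members were all genes of the count table whose symbol begins with msp-, ssp- or spe-, together with *fer-1*, *gsp-3*, *gsp-4*, *fog-1*, *fog-3*, *try-5* and *snf-10*. They numbered 82 of the 20392 genes in the table, 77 by their Ensembl symbol and 5 more by their RefSeq symbol. Total RNA came from 6 libraries. In 3 of them the larvae were of strain XA6227, with the genotype *mrg-1* -/-, and in the other 3 they were wild type, of strain N2. *mrg-1* encodes a chromodomain protein that binds chromatin. The mutant larvae were the offspring of 2000 to 4000 homozygous adults picked by hand for the absence of the balancer, whereas the wild-type mothers were washed off plates, so that picking and genotype cannot be told apart. After 18 h of hatching in M9 buffer, larvae of both genotypes were given food for 2 h 30 min. The labels do not say which lesion of *mrg-1* the strain carries, and larvae were pooled within a library.

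Hermaphrodites of this species make sperm late in larval life, before they switch to oocytes. The germ cell precursors of an L1 larva have yet to enter that programme. The programme has an order of roles. *fog-1* and *fog-3* commit germ cells to sperm, *spe-44* directs transcription in spermatocytes, and the products then build the motile cell. The major sperm proteins (msp genes) form the filaments of the crawling sperm in place of actin, *fer-1* and several spe genes shape and fuse the membranous organelles, the *spe-8* group and *try-5* activate the cell, and *spe-9*, *spe-41*, *spe-42* and *spe-49* act when sperm meets egg.

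Library depth was 20917771 to 24123189 counts in the mutant and 19238422 to 39063186 counts in the wild type, of which mitochondrially encoded genes took 8.42% to 12.4% and 10.6% to 45.6%. One count was worth 0.0376 to 0.0412 CPM (counts scaled to library size, with TMM factors) in the mutant, against 0.0365 to 0.0480 CPM in the wild type. The *mrg-1* transcript itself averaged 4.29 ± 1.90 CPM in the mutant and 21.6 ± 7.57 CPM in the wild type (SD, n = 3 each). Markers of larval muscle, intestine and neurons had counts in all 6 libraries; the muscle markers summed to 7312 to 8392 CPM in the mutant and 3173 to 6376 CPM in the wild type. The epidermal markers summed to 162 to 174 CPM in the mutant and 189 to 304 CPM in the wild type, the intestinal markers to 500 to 752 CPM in the mutant and 212 to 857 CPM in the wild type, and the neuronal markers to 358 to 584 CPM in the mutant and 356 to 379 CPM in the wild type. The part of these values in the sperm gene values was not tested. The adult collagen *col-19* had 2 counts in mutant library 2, 1 in wild-type library 1 and none in the others. The labels do not say how the replicates were separated beyond calling them biological, and p-values measure the spread between these libraries.

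More sperm genes had a count in the mutant libraries than in the wild-type libraries, and the same held for weakly expressed genes in general. At least 1 count was found for 33, 35 and 40 of the 82 genes in mutant libraries 1, 2 and 3, and for 30, 21 and 23 in wild-type libraries 1, 2 and 3. The groups did not overlap, but wild-type library 1 lay only 3 genes below mutant library 1. The means were 36 ± 3.61 genes in the mutant and 24.7 ± 4.73 in the wild type (SD, n = 3 each). Thinned to the smallest nuclear total of 17191073 counts, the expected numbers were 32.0, 34.5 and 38.7 in mutant libraries 1, 2 and 3 and 30, 20.0 and 22.3 in wild-type libraries 1, 2 and 3, and the groups again did not overlap.

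**Figure D1:**
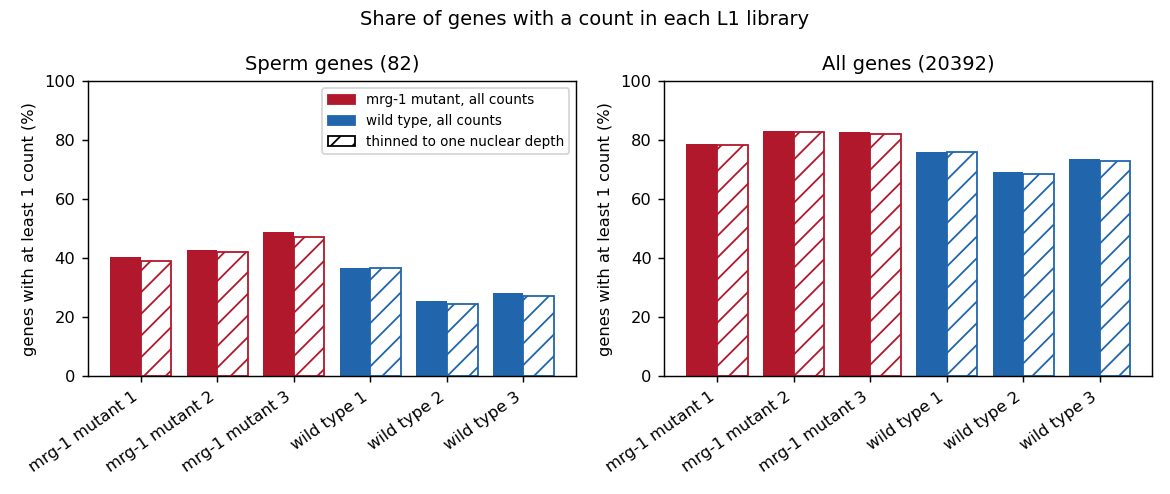
Share of genes with at least 1 count in each library, for the 82 sperm genes on the left and all 20392 genes on the right; solid bars use all counts and hatched bars the expectation after thinning to one nuclear depth. The 3 mutant libraries stand at 40.2% to 48.8% and the 3 wild-type libraries at 25.6% to 36.6% of the sperm genes, and the mutant bars are also the higher ones for all genes.

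Among all genes measured, 78.8% to 83.1% of genes had a count in the mutant libraries and 69.1% to 75.8% in the wild-type libraries. For the 6390 genes that averaged under 1 CPM but were not at 0 throughout, a stratum chosen after the values were seen, the share was 67.9% ± 7.28 in the mutant and 43.2% ± 9.12 in the wild type. For the 32 sperm genes in that stratum it was 71.9% ± 11.3 in the mutant and 39.6% ± 12.6 in the wild type (SD over libraries, n = 3 each). In each group the sperm genes differed from the other weak genes by less than the SD over libraries.

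By library, 10 of the 82 sperm genes had counts in at least 1 mutant library and no wild-type library, which held for 9.35% of all genes. None had counts only in the wild type, against 1.72% of all genes. No sperm gene was present in all 3 mutant libraries and absent from all 3 wild-type libraries, a pattern of 1.53% of all genes. A total of 27 sperm genes had a count in more mutant than wild-type libraries and 2, *fog-3* among them, in more wild-type than mutant ones. Over all genes these shares were 21% and 3.91%. For 11 sperm genes every library held a count. A further 37 were at 0 in all 6 libraries, against 8.33% of all genes.

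**Figure D2:**
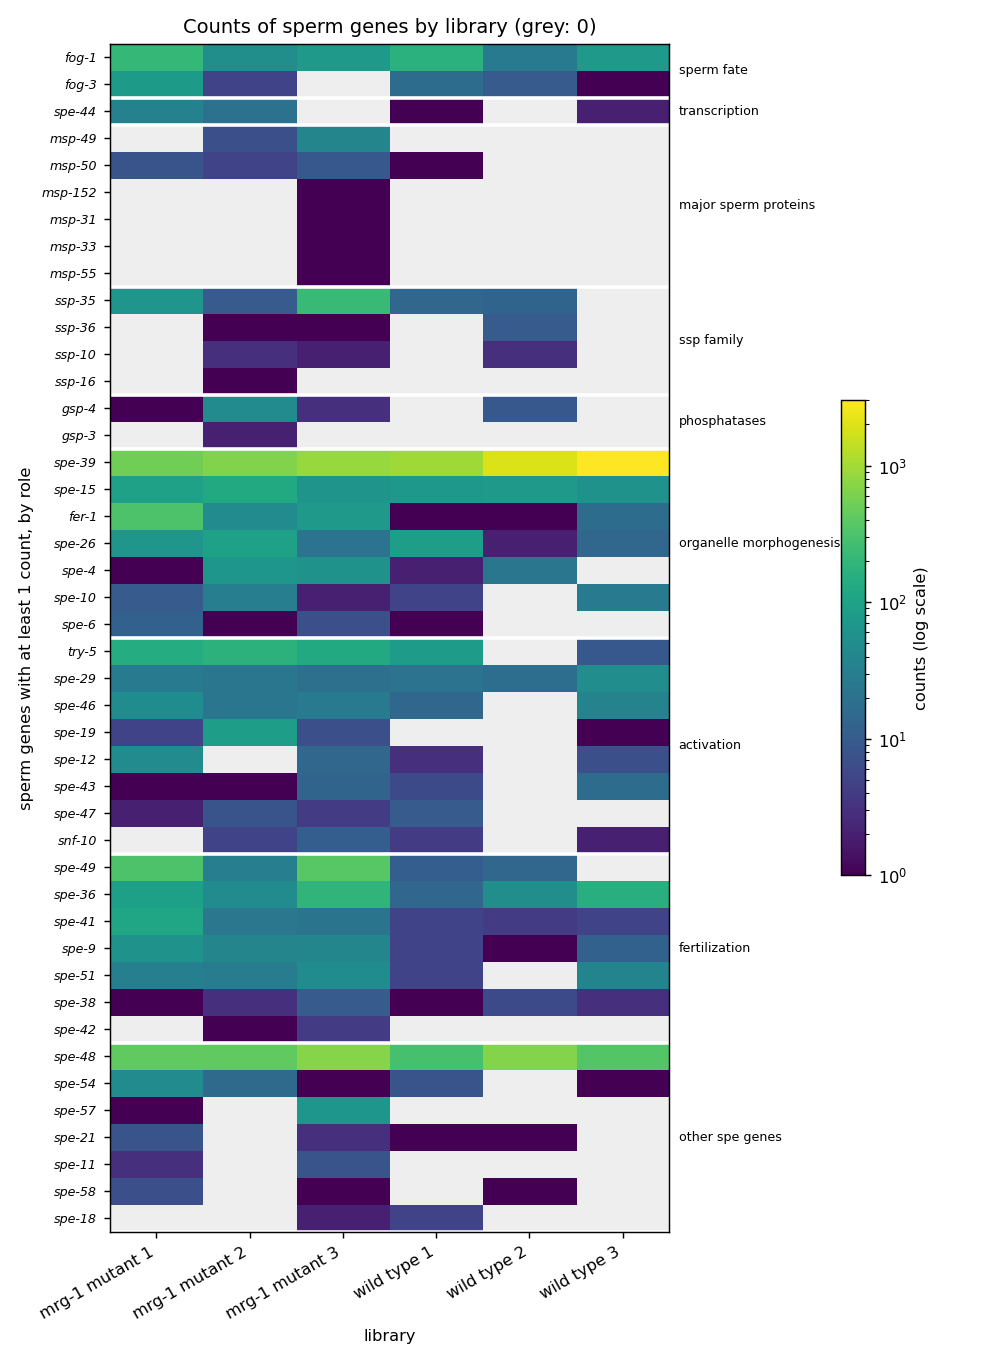
Counts of the sperm genes named here that had any count, 1 gene per line grouped by role, in the 3 mutant libraries and then the 3 wild-type libraries; colour gives the count on a log scale and grey marks 0. *spe-39* and *spe-48* are bright in every library, while most other genes are high in 1 or 2 libraries and low or grey in the rest.

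The 2 genes of sperm fate did not separate the genotypes. *fog-1* encodes an RNA-binding protein of the CPEB family and *fog-3* a Tob-family protein, and both act before any sperm product is made. *fog-1* had 204, 53 and 75 counts in mutant libraries 1, 2 and 3, against 167, 28 and 74 in wild-type libraries 1, 2 and 3. Library 1 was the highest within each genotype, and the groups overlapped over their whole range. In CPM this was 4.32 ± 3.16 in the mutant and 3.92 ± 3.65 in the wild type (SD, n = 3 each), with a log2 fold change of 0.14 (SE 0.88, edgeR adjusted p = 0.945), whose sign turned without mutant library 1 or wild-type library 2 or 3. *fog-3* had 78, 5 and 0 counts in the mutant libraries and 17, 10 and 1 in the wild-type libraries, and was too weak to be tested. One mutant library held 94.0% of its mutant counts. For *spe-44*, which encodes a SAND-domain regulator of spermatocyte transcription, the counts were 34, 20 and 0 in the mutant libraries and 1, 0 and 2 in the wild-type libraries. The summed counts of *spe-44* gave a mutant to wild-type ratio of 17.8 (95% exact binomial interval 5.76 to 88.8, counting error only), and mutant library 3 at 0 lay below 2 of the wild-type libraries.

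Nearly all major sperm protein genes were listed at 0. Of the 30 msp genes, 13 lie on chromosome II and 17 on chromosome IV, and 24 had no count in any library. The whole family gathered 8, 12 and 51 counts in mutant libraries 1, 2 and 3, and 1, 0 and 0 in wild-type libraries 1, 2 and 3. *msp-49* and *msp-50* carried most of them. *msp-49* had 0, 7 and 38 counts in the mutant libraries and none in the wild-type libraries, at least 14.8-fold higher over the group floor of 3 counts, with 84.4% of them in mutant library 3. *msp-50* had 8, 5 and 9 counts in the mutant libraries and 1, 0 and 0 in the wild-type libraries, a ratio of 21.7 (95% exact binomial interval 3.51 to 896). For *msp-50* each mutant library was above each wild-type library. These 2 genes lie side by side on the plus strand of chromosome II, *msp-49* from 5194366 to 5194749 and *msp-50* from 5199797 to 5200180 in WBcel235, with *C34F11.5* between them. *C34F11.5* had 39, 18 and 13 counts in the mutant libraries and 20, 74 and 4 in the wild-type libraries. The other 4, *msp-31*, *msp-33*, *msp-55* and *msp-152*, had a single count each, all in mutant library 3.

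A 0 in this family cannot be read as absence. The msp genes are near copies of one another, and how reads that match several genes were treated is not given in the sources used here. Histone genes, also a family of near-identical copies and needed by every dividing cell, were looked up after the msp counts had been seen. Of 70 his genes, 41 were at 0 in all 6 libraries. The number with a count was 24 or 25 in each mutant library and 24 to 26 in each wild-type library. Why these histone genes were at 0 was not tested, so they cannot show how reads shared between copies were counted.

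The ssp genes encode small sperm proteins related to the major sperm proteins. Of 12, 8 had no count, and *ssp-16*, *ssp-10* and *ssp-36* had at most 10 counts in any library. *ssp-35* alone was tested. It had 65, 10 and 230 counts in mutant libraries 1, 2 and 3, against 14, 13 and 0 in wild-type libraries 1, 2 and 3. Mutant library 2 lay below 2 wild-type libraries, so the groups overlapped, and the mutant libraries differed among themselves by 20.9-fold in CPM. The log2 fold change was 3.33 (SE 1.41, edgeR adjusted p = 0.216), and 1.96 without mutant library 3. *gsp-3* and *gsp-4* encode the sperm forms of protein phosphatase 1. *gsp-4* had 1, 48 and 3 counts in the mutant libraries and 0, 9 and 0 in the wild-type libraries, so that library 2 held most of its counts in both genotypes. *gsp-3* had 2 counts, both in mutant library 2.

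Only 16 of the 82 genes passed the expression filter, and 0 of these 16 were called in either direction by edgeR's quasi-likelihood test (adjusted p under 0.05 over 13460 genes). Over all tested genes 1.75% were called higher and 0.847% lower. At an unadjusted p under 0.05, 5 of the 16 were higher (*spe-9*, *fer-1*, *ssp-35*, *spe-41* and *spe-49*), against 9.29% of all tested genes, and 1, *spe-39*, was lower, against 10.2%. The calls depended on the tool. DESeq2 called 4 of 27 members higher (*fer-1*, *spe-41*, *spe-49* and the activation gene *spe-19*, which edgeR did not test), where its background was 5.62%. Of the same 27 it called *spe-39* lower, with a background of 4.53%. At an unadjusted p under 0.05 it had 8 of 45 members higher and 1 lower, with backgrounds of 10.4% and 9.22%. limma-voom called 0 higher and 0 lower, with backgrounds of 1.85% and 0.869%, and 4 higher and 1 lower at an unadjusted p under 0.05, with backgrounds of 13.1% and 9.39%. limma on the deposited log2 values called *fer-1* and *spe-49* higher (background 3.57%) and 0 lower (background 0.253%). In edgeR without an expression filter, 45 members were tested. Of these, *fer-1* and *spe-49* were called higher (background 2.32%) and *spe-39* lower (background 1.6%). At an unadjusted p under 0.05, 8 of the 45 were higher and 1 lower, with backgrounds of 10.8% and 8.1%. With the replicate number as a block, 0 were called higher (background 2.15%) and 1, *spe-39*, lower (background 1.05%). edgeR called 0 higher and 0 lower under RLE size factors (backgrounds 1.79% and 0.795%), library totals (1.52% and 0.0817%), without mitochondrial genes (1.81% and 1.02%) and with a filter of 1 CPM in 3 libraries (1.97% and 1.13%).

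More of these genes passed the filter through the mutant than through the wild type. It asked for at least 0.419 CPM by library total in 3 libraries. Of the 16, 15 reached this in all 3 mutant libraries, 6 of those in no more than 1 wild-type library and 2, *spe-9* and *spe-41*, in none. The median log2 fold change of the 16, 1.19 against -0.03 over all tested genes, is therefore a description of these genes only. Among tested genes under 10 CPM, another stratum chosen after the values were seen, it was 0.15 over 6413 genes and 1.72 over the 14 sperm genes. These 14 passed the same filter, so that value too only describes them. Groups without overlap were found for 5 of the 16 upward (*spe-9*, *fer-1*, *spe-41*, *try-5* and *spe-49*), against 14.4% of tested genes. For *spe-39* this held downward, against 12%. Of the upward genes, *fer-1* and *try-5* reached the filter level in only 1 wild-type library, and *spe-9* and *spe-41* in none. This count, and that of genes at an unadjusted p under 0.05, therefore also only describes these genes.

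**Figure D3:**
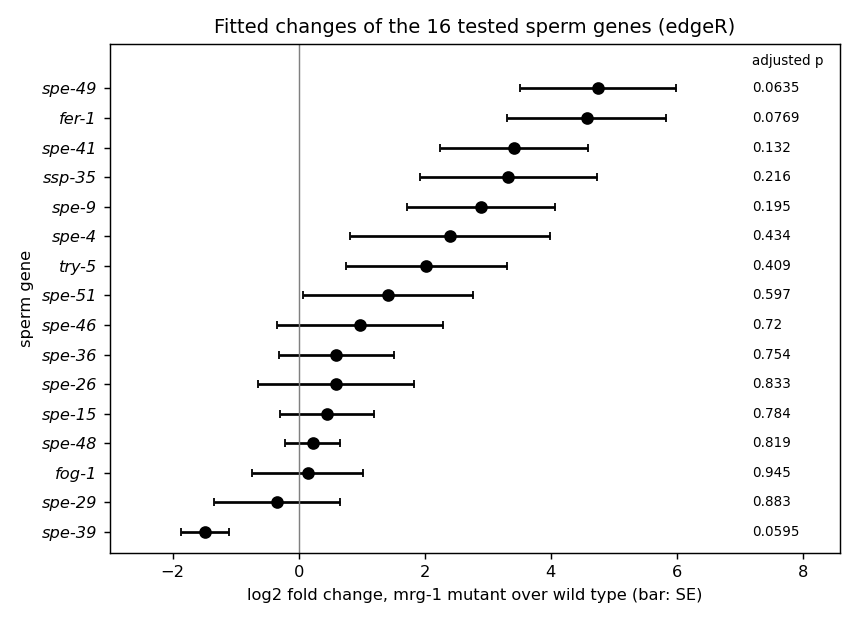
Fitted log2 fold change of the 16 tested sperm genes, mutant over wild type, with its SE as a bar and the edgeR adjusted p at the right. *spe-49* and *fer-1* stand farthest to the right at 4.75 and 4.57, *spe-39* farthest to the left at -1.48, and every adjusted p is above 0.05.

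The genes of organelle morphogenesis held both the strongest transcript of the set and one of the widest differences. *fer-1* encodes a ferlin that fuses the membranous organelles with the sperm surface. It lies on the minus strand of chromosome I, from 8623012 to 8631202 in WBcel235. Its counts were 320, 48 and 77 in mutant libraries 1, 2 and 3, against 1, 1 and 17 in wild-type libraries 1, 2 and 3. Every mutant library was above every wild-type library, and mutant library 1 and wild-type library 3 stood apart from the rest of their groups. In CPM the means were 5.78 ± 5.82 in the mutant and 0.235 ± 0.334 in the wild type (SD, n = 3 each). The log2 fold change was 4.57 (SE 1.27, edgeR adjusted p = 0.0769). It was 3.34 without mutant library 1 and 6.97 without wild-type library 3, where the adjusted p was 0.0191, and over all alternatives the adjusted p ran from 0.00107 to 0.374. In the annotation, exons of *fer-1* share 150 and 102 bases with 2 non-coding RNAs on the other strand, and whether strand was used in counting is not given.

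*spe-39* is not a sperm product alone. Its protein works with vesicle-tethering complexes in delivery to lysosomes, and it is used in many cell types. The gene lies on the plus strand of chromosome V, from 6785451 to 6787864 in WBcel235. It had 20.8, 27.5 and 33.2 CPM in mutant libraries 1, 2 and 3, against 45.9, 73.0 and 109 CPM in wild-type libraries 1, 2 and 3. All mutant libraries lay below all wild-type libraries. The log2 fold change was -1.48 (SE 0.38, edgeR adjusted p = 0.0595), just outside the threshold. Without wild-type library 1 the adjusted p was 0.0203, in DESeq2 0.00824, and in limma on the deposited log2 values 0.116, where the library totals set the scale and the log2 fold change was -1.09. Over all alternatives the log2 fold change stayed between -1.74 and -1.09. In bulk RNA, fewer cells of a type and less RNA per cell cannot be told apart.

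The other genes of this role did not separate. *spe-4*, a sperm presenilin, had 1, 67 and 60 counts in mutant libraries 1, 2 and 3 and 2, 23 and 0 in wild-type libraries 1, 2 and 3. Mutant library 1 was within the wild-type range, and the log2 fold change was 2.40 (SE 1.59, edgeR adjusted p = 0.434). *spe-26*, a kelch-repeat protein, had 65, 98 and 21 counts in the mutant libraries and 90, 2 and 14 in the wild-type libraries (log2 fold change 0.59, SE 1.24), and in CPM wild-type library 1 was the highest of all 6. That fold change was 3.04 without wild-type library 1. *spe-15*, a myosin VI, overlapped, at 3.88 ± 1.48 CPM in the mutant and 2.85 ± 0.598 CPM in the wild type (SD, n = 3 each). *spe-10*, a palmitoyltransferase, had 10, 31 and 2 counts in the mutant libraries and 5, 0 and 27 in the wild-type libraries. *spe-6*, a casein kinase, had 12, 1 and 7 counts in the mutant libraries and 1, 0 and 0 in the wild-type libraries. Without *spe-39* the genes of this role summed to 19.8, 15.5 and 8.68 CPM in the mutant libraries and 8.22, 3.78 and 4.38 CPM in the wild-type libraries. Mutant library 3 exceeded wild-type library 1 by less than the SD of either group (5.59 CPM in the mutant and 2.41 CPM in the wild type).

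**Figure D4:**
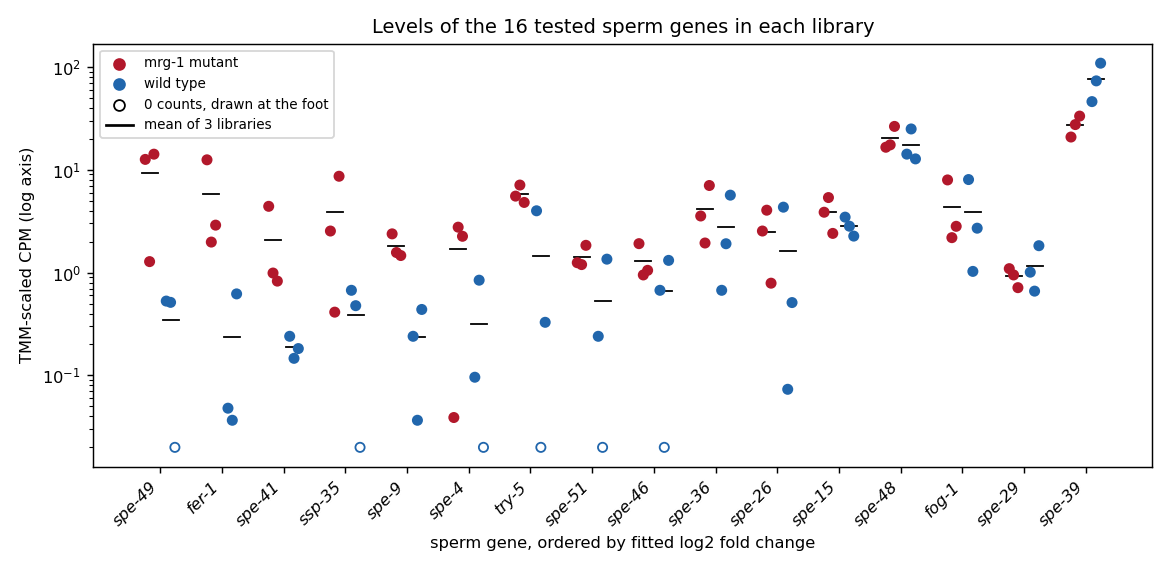
Level of each of the 16 tested sperm genes in every library, in TMM-scaled CPM on a log axis, with the 3 mutant libraries left of the 3 wild-type libraries and a bar at each mean; open circles are 0 counts. The groups are apart for *spe-49*, *fer-1*, *spe-41*, *spe-9*, *try-5* and *spe-39*, and 6 genes have a wild-type library at 0.

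Among the activation genes *try-5* was the strongest. It encodes a serine protease of seminal fluid that activates sperm, a product of the male gonad rather than of sperm. It had 5.54, 7.09 and 4.81 CPM in mutant libraries 1, 2 and 3, against 3.99, 0 and 0.329 CPM in wild-type libraries 1, 2 and 3. The mutant libraries were close to each other, and wild-type library 1 lay just below them while the other two were near 0. The log2 fold change was 2.02 (SE 1.28, edgeR adjusted p = 0.409), and 5.11 without wild-type library 1, where the adjusted p was 0.0477. *snf-10*, a transporter that sperm need to respond to this protease, had 0, 5 and 11 counts in the mutant libraries and 4, 0 and 2 in the wild-type libraries.

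The *spe-8* group, which relays the activating signal in hermaphrodites, was patchy. *spe-8* itself and *spe-27* had no count. *spe-19* had 5, 89 and 7 counts in mutant libraries 1, 2 and 3 and 0, 0 and 1 in wild-type libraries 1, 2 and 3, a ratio of 99.6 (95% exact binomial interval 17.5 to 3974) with 88.1% of the mutant counts in library 2. *spe-12* had 48, 0 and 14 counts in the mutant libraries and 3, 0 and 7 in the wild-type libraries, so its groups overlapped. *spe-43* overlapped too, at 1, 1 and 13 counts in the mutant libraries and 6, 0 and 17 in the wild-type libraries. *spe-29* had 0.918 ± 0.191 CPM in the mutant and 1.16 ± 0.598 CPM in the wild type (SD, n = 3 each). Its exons share 117 bases with the opposite strand of *gon-1*, which had 4057 to 5025 counts in the mutant libraries and 2327 to 4899 in the wild-type libraries, and the source of the *spe-29* counts is therefore uncertain. Of the activation genes outside this group, *spe-46* had 49, 23 and 28 counts in the mutant libraries and 14, 0 and 36 in the wild-type libraries. *spe-47*, which carries a major sperm protein domain, had 2, 8 and 4 counts in the mutant libraries and 10, 0 and 0 in the wild-type libraries. Wild-type library 2 held a count for only 1 of the 10 activation genes, *spe-29*, while the other 5 libraries held one for 7 or 8.

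Of the 5 tested fertilization genes, 3 were higher without overlap, against 14.4% of all tested genes. Among these 3, *spe-9* and *spe-41* reached the filter level in no wild-type library, so the count only describes these genes. *spe-49*, which encodes a membrane protein related to *spe-42*, lies on the plus strand of chromosome V, from 6281359 to 6284895 in WBcel235. It had 323, 31 and 377 counts in mutant libraries 1, 2 and 3, against 11, 14 and 0 in wild-type libraries 1, 2 and 3. Mutant library 2 was some way below the other mutant libraries and still above the wild type. The means were 9.34 ± 7.03 CPM in the mutant and 0.347 ± 0.301 CPM in the wild type (SD, n = 3 each), with a log2 fold change of 4.75 (SE 1.24, edgeR adjusted p = 0.0635). Over the alternatives the log2 fold change lay between 3.59 and 5.29 and the adjusted p between 0.000224 (DESeq2) and 0.246. The chemoreceptor gene *srn-1*, whose exons share 63 bases with the other strand of *spe-49*, had 18, 7 and 17 counts in the mutant libraries and none in the wild-type libraries.

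*spe-41* encodes a TRPC channel that sperm need for fertilization. It had 113, 24 and 22 counts in mutant libraries 1, 2 and 3 and 5, 4 and 5 in wild-type libraries 1, 2 and 3. The wild-type libraries were nearly equal, and mutant library 1 stood above the other mutant libraries. Its log2 fold change was 3.42 (SE 1.17, edgeR adjusted p = 0.132) and 2.25 without mutant library 1. *spe-9*, an EGF-repeat protein of the sperm surface, varied less among the mutant libraries, with 61, 38 and 39 counts there and 5, 1 and 12 in the wild-type libraries. The log2 fold change of *spe-9* was 2.89 (SE 1.17, edgeR adjusted p = 0.195). No alternative brought its adjusted p below 0.0691.

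Other genes of fertilization overlapped. *spe-36*, a secreted EGF-motif protein, had 91, 47 and 187 counts in the mutant libraries and 14, 52 and 155 in the wild-type libraries. It shares 68 exon bases with *F40F11.3* on its own strand and 62 with *F12F6.1* on the other. *spe-51* had 32, 29 and 49 counts in the mutant libraries and 5, 0 and 37 in the wild-type libraries (log2 fold change 1.42, SE 1.35, edgeR adjusted p = 0.597). *spe-38*, a tetraspan membrane protein, had 1, 3 and 10 counts in the mutant libraries and 1, 6 and 3 in the wild-type libraries. *spe-42* had 0, 1 and 4 counts in the mutant libraries and none in the wild-type libraries.

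Of the spe genes with no role assigned here, *spe-48* was the second strongest transcript of the set and did not differ beyond its spread. It stood at 20.1 ± 5.43 CPM in the mutant and 17.3 ± 6.65 CPM in the wild type (SD, n = 3 each; log2 fold change 0.22, SE 0.43, edgeR adjusted p = 0.819). *spe-57* had 1, 0 and 68 counts in the mutant libraries and none in the wild-type libraries, so that a group difference of at least 22.7-fold over the floor rested on mutant library 3. *spe-11*, whose product the sperm carries into the egg, had 3, 0 and 8 counts in the mutant libraries and none in the wild-type libraries. *spe-54* had 47, 16 and 1 counts in the mutant libraries and 8, 0 and 1 in the wild-type libraries. *spe-21*, a palmitoyltransferase, had 8, 0 and 3 counts in the mutant libraries and 1, 1 and 0 in the wild-type libraries, beside 71 exon bases shared with the other strand of *ten-1*, which had over 2000 counts in every library. *spe-18* and *spe-58* had 2 and 8 counts in the mutant and 5 and 1 in the wild type, and *spe-40* and *spe-55* had none.

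Per kilobase of the deposited gene length, the order of mean levels in the mutant began with *spe-48* at 16.1 CPM per kb, *spe-39* at 14.4, *ssp-35* at 8.08, *try-5* at 5.64 and *spe-49* at 4.20. In the wild type it began with *spe-39* at 40.1 CPM per kb and *spe-48* at 13.8, followed by *spe-36* at 2.30. In the mutant *spe-48* and *spe-39* did not differ beyond their spread.

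The sum over all 82 genes joined *spe-39*, lower in the mutant libraries, with genes that were higher there, such as *spe-49*. It was 110, 88.1 and 119.2 CPM in mutant libraries 1, 2 and 3, against 87.8, 109 and 141 CPM in wild-type libraries 1, 2 and 3, which is 106 ± 15.9 in the mutant and 112 ± 26.7 in the wild type (SD, n = 3 each). *spe-39* alone held 18.9% to 31.2% of the sperm gene counts in the mutant libraries and 52.3% to 77.1% in the wild-type libraries. Without *spe-39*, *spe-48* and *spe-49*, the 3 genes with the most counts, the other 79 summed to 60.0, 41.9 and 45.5 CPM in the mutant libraries and 27.2, 10.2 and 19.5 CPM in the wild-type libraries. Every mutant library exceeded every wild-type library in that sum. The 3 genes were set apart by their counts in these same data. No like sum was made for other weak genes, so this one only describes the 79. The gene that led these 79 differed by library. It was *fer-1*, *try-5* and *ssp-35* in mutant libraries 1, 2 and 3, and *fog-1*, *spe-15* and *spe-36* in wild-type libraries 1, 2 and 3.

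**Figure D5:**
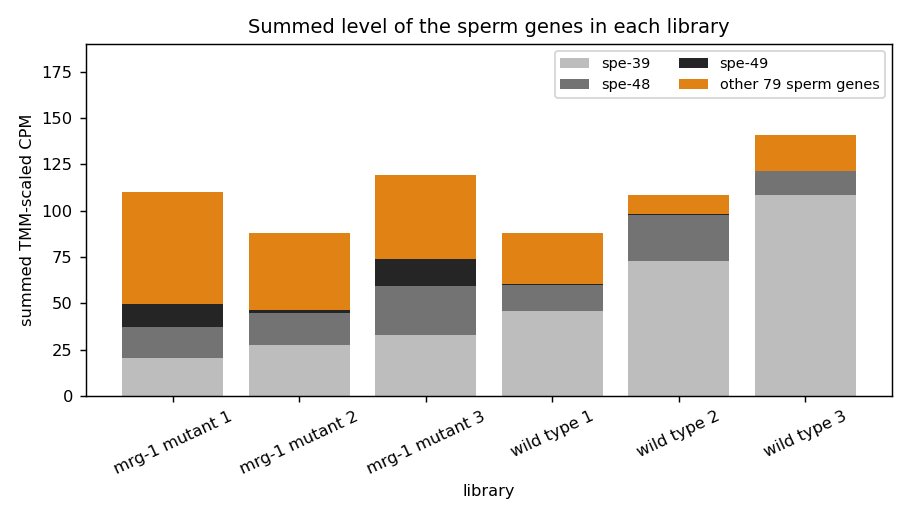
Summed TMM-scaled CPM of the 82 sperm genes in each library, stacked as *spe-39*, *spe-48*, *spe-49* and the other 79 genes. The totals overlap between genotypes, while the part of the other 79 genes is 41.9 to 60.0 CPM in the mutant libraries and 10.2 to 27.2 CPM in the wild-type libraries.

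Most further sperm-enriched genes outside the rule had few counts, and *cpb-1* had the most. Of 26 such genes in the table (families smz, ssq, sss, msd and nspd and a few single genes), 18 had a count and 1 was tested, *cpb-1*, which encodes a CPEB protein of spermatogenesis. *cpb-1* had 0, 3 and 19 counts in the mutant libraries and 33, 20 and 102 in the wild-type libraries (log2 fold change -2.82, edgeR adjusted p = 0.284). The mutant libraries were all below the wild type, as for 12% of all tested genes. Mutant library 3 and wild-type library 2 nearly tied, at 0.714 and 0.733 CPM. The list summed to 0.468, 2.56 and 3.91 CPM in the mutant libraries and 1.97, 1.72 and 3.87 CPM in the wild-type libraries. The groups overlapped in this sum. Of it, *cpb-1* alone gave 0, 0.124 and 0.714 CPM in the mutant libraries and 1.59, 0.733 and 3.72 CPM in the wild-type libraries. *sss-2* had 0, 20 and 29 counts in the mutant libraries and none in the wild-type libraries. *ssq-1* went the other way, with 0, 2 and 0 counts in the mutant libraries and 0, 26 and 0 in the wild-type libraries. *smz-2* had 5, 9 and 12 counts in the mutant libraries and 1, 0 and 0 in the wild-type libraries. The sperm histone gene *htas-1* had a single count in each mutant library and none in the wild type.

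Genes of germline sex determination, which decide between sperm and oocyte upstream of *fog-1* and *fog-3*, had counts in both genotypes. In RNA of pooled larvae these counts cannot be assigned to germ cells. Of the genes in this list, all 17 in the table had counts and 16 were tested. edgeR called 0 of them higher and 0 lower, against 1.75% and 0.847% of all tested genes. At an unadjusted p under 0.05, 0 were higher and 1, *mog-1*, was lower, against 9.29% and 10.2% of all tested genes. *mog-1* had 990, 847 and 986 counts in the mutant libraries and 1523, 1446 and 1798 in the wild-type libraries (log2 fold change -0.79, adjusted p = 0.176). Their median log2 fold change was -0.45, against -0.03 over all tested genes. The masculinizing gene *fem-3* had 44, 38 and 168 counts in the mutant libraries and 110, 83 and 273 in the wild-type libraries. Library 3 was the highest in both genotypes.

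Markers of other cell types and stages were measured beside these genes. The 8 genes of adult hermaphrodite soma (vitellogenins, *col-19* and *bli-1*) had 2, 2 and 3 members at 0 in mutant libraries 1, 2 and 3 and 3, 5 and 3 at 0 in wild-type libraries 1, 2 and 3, and summed to 3.63, 12.5 and 11.8 CPM in the mutant libraries and 2.83, 6.34 and 6.06 CPM in the wild-type libraries. The oocyte and eggshell list of 9 genes summed to 22.5, 33.0 and 23.5 CPM in the mutant libraries and 46.7, 27.6 and 34.6 CPM in the wild-type libraries. The 6 genes of primordial germ cells summed to 46.4, 47.4 and 33.1 CPM in the mutant libraries and 72.6, 37.4 and 54.7 CPM in the wild-type libraries. In this list *nos-2* was at 0 in mutant libraries 1 and 2 and wild-type library 2. The 6 meiotic genes lay at 28.3 to 29.01 CPM in the mutant and 24.2 to 34.1 CPM in the wild type. In these lists edgeR called 1 gene, the eggshell gene *cpg-2*, which fell to 5, 0 and 12 counts in the mutant libraries, against 147, 103 and 385 in the wild-type libraries (log2 fold change -5.23, adjusted p = 0.0373). The yolk gene *vit-1* had 46, 121 and 110 counts in the mutant libraries and 7, 6 and 9 in the wild-type libraries (log2 fold change 3.61, edgeR adjusted p = 0.0742). The 4 tested genes of the adult soma list did not share a direction. The log2 fold change was 2.03 for *vit-6*, -0.80 for *vit-2* and -1.43 for *bli-1*, none of them called. The part of any of these lists in the sperm gene values was not tested.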

How the data were processed

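The authors deposited raw counts per gene with a gene length, and a table of log2 values. A deposited log2 value is the log2 of a scaled count to which 8 was added; scaling brings each library to 24838462 counts. Libraries were made from 2 ng of total RNA, per the labels' protocols. The submitters' processing notes name ce10. Which aligner, counter, annotation and strand setting were used, and how reads matching several genes were treated, is not given in the sources used here. Gene positions are those of Ensembl WBcel235, another build, looked up by identifier; 19870 of 20392 identifiers were found. RefSeq WBcel235 symbols were added by sequence name. *spe-5* and *msp-58* were not analysed here, and single values of some members are not reported here. There were 0 unmapped sample columns.

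edgeR 4.0.16 in R 4.3.3 was run on all genes (TMM, default filter, quasi-likelihood test on genotype alone, Benjamini-Hochberg 0.05), with DESeq2 1.42.0 and limma 3.58.1 as alternatives, beside other scalings and filters, a replicate block and each library left out. CPM are TMM-scaled, and SE is the absolute log2 fold change over the root of F. The fit was tested on simulated data. Thinned numbers are hypergeometric expectations. The floor is 3 counts per group (0.0392 CPM in the mutant, 0.0397 in the wild type); intervals and floors cover counting error only. The members, roles and lists were chosen with earlier results of these data known. Named are the tested members, those with at least 10 counts in either group and, by range, weaker ones. The figures were drawn with matplotlib 3.10.9.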

Additional observations from a re-analysis of the deposited data

How the results depend on the processing

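The count of calls over all tested genes, 236 higher and 114 lower, set the background for the sperm genes and moved with the settings. It was 434 higher and 300 lower with no expression filter, 839 and 676 in DESeq2, 480 and 34 in limma on the deposited log2 values, and 11 lower under library totals. Leaving out 1 library gave 35 to 559 higher and 0 to 484 lower. Sperm genes called higher, 0 of 16 in edgeR, were 2 of 45 with no expression filter and 4 of 27 in DESeq2. They were 2 of 16 in limma on the deposited log2 values and 0 to 1 without a library. The latter were *try-5* without wild-type library 1 and *fer-1* without wild-type library 3. Over all genes these 2 fits called 559 of 14244 and 279 of 14241 higher. Sperm genes called lower, also 0, were 1 with no expression filter, with the replicate block, in DESeq2 and without wild-type library 1, each time *spe-39*, and 0 to 1 over the libraries left out. Without wild-type library 1, 484 of 14244 genes were called lower. Over the tested sperm genes the median log2 fold change, 1.19, was 1.67 under library totals, 1.85 with no filter and 0.61 with the CPM filter. It was 2.09 with the replicate block, 2.45 in limma-voom and 0.71 to 1.97 without a library. The value with no filter is the fitted fold change of *msp-31*, *msp-33*, *msp-55* and *msp-152*, which had a single count each. The set of genes tested changes with a filter or a left-out library, and the cause was otherwise not tested. Direction turned, with no call on either side, for *spe-29* under library totals (0.035), on the deposited log2 values (0.051) and without wild-type library 3 (range without a library -0.63 to 0.16), for *spe-36* (-0.00069 to 1.70) and *spe-48* (-0.023 to 0.57) without mutant library 3, and for *fog-1* without mutant library 1 or wild-type library 2 or 3 (-0.62 to 1.22); the cause was not tested. Of the values of single genes under an alternative, 216 kept direction and call, 13 newly passed the threshold and 8 turned. Library totals and the deposited scale moved the median of all tested genes from -0.03 to 0.27 and 0.35. The mean number of sperm genes with a count was 34 to 37.5 in the mutant and 22 to 26.5 in the wild type without a library, and at a minimum of 10 counts it was 21.3 in the mutant and 13 in the wild type. The summed level was 132 CPM in the mutant and 140 CPM in the wild type over nuclear totals, 49.1 and 18.9 without the 3 strongest genes, and 99.0 to 115 in the mutant and 98.2 to 125 in the wild type without a library. Same-numbered libraries deviated together at correlations of -0.005, 0.043 and 0.093, so the numbers were not taken as pairs, and not every library correlated best with its own number; with the replicate block 290 genes were higher and 141 lower. Of the 82 genes 66 were not tested, 37 of them at 0 in every library, and for these no difference can be given.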

Other observations

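No sperm gene of the set lies on the X chromosome, which holds 13.3% of the genes in the table. The members sit on chromosome IV (34), I (21), II (15), V (9) and III (3). Chromosome IV holds 10 and chromosome I 17 of the members with a count, and none of the 15 on chromosome II was tested.

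The genes next to the 35 sperm genes with at least 10 counts or a test were read as well, after the values had been seen. Of 69 neighbours 50 were tested and edgeR called 1, *lars-2* beside *spe-4*, which fell with a log2 fold change of -1.80 (adjusted p = 0.0407); over all tested genes 1.75% were called higher and 0.847% lower. *tbb-6*, 131 bases from *ssp-35* and on the other strand, had 260, 239 and 1327 counts in mutant libraries 1, 2 and 3, against 92, 1 and 4 in wild-type libraries 1, 2 and 3 (log2 fold change 3.95, edgeR adjusted p = 0.109). Mutant library 3 was the highest for both genes of this pair. *T03F1.6*, 127 bases from *gsp-4*, had 71, 236 and 181 counts in the mutant libraries and 54, 14 and 2 in the wild-type libraries. Mutant library 2 was the highest for both of these genes too. On the other side of *ssp-35*, *F55C5.2* had 28, 7 and 14 counts in the mutant libraries. On the other side of *gsp-4*, *F53F10.1* had 83, 148 and 194 there. Neither shared the top mutant library of its neighbour. How many of all pairs share a top library was not counted, and a cause was not tested.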
